A study of Mus musculus with 2 samples.

Results

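Cytosolic ribosomal protein genes encode the protein parts of the ribosome that translates nuclear-encoded mRNAs. The members were taken by symbol, as genes beginning with Rpl or Rps and a digit together with Rplp0, Rplp1, Rplp2 and Rpsa, without pseudogene names (-ps) and without the S6 kinases (Rps6k). This rule gave 86 of the 32285 genes counted. Of these, 46 encode proteins of the large 60S subunit and 31 proteins of the small 40S subunit, together 77 canonical genes. A further 8 are paralogs (Rpl3l, Rpl7l1, Rpl10l, Rpl22l1, Rpl36al, Rpl39l, Rps27l and Rps27rt), and Rps19bp1, caught by its symbol, encodes a protein that binds RPS19 and is no ribosomal protein itself.

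The data were 2 single-cell RNA-seq libraries of sorted mouse melanocyte lineage cells, 1 per condition, so that no difference between them has a replicate check and no test was made. The mice of both carried Dct-rtTA; tetO-H2B-GFP, and back skin was used. In this system a doxycycline-dependent activator under Dct regulatory sequence switches on a GFP-tagged histone, here after 4 days of doxycycline chow. GFP+ cells of 4 mice of either sex and mixed background were pooled in each library. Early-anagen McSCs (labelled Activated McSC, melanocyte stem cells of the hair follicle) were taken 4 days after depilation of 8 week old mice, released with trypsin and sequenced with version 3 of the 10x 3′ kit. Bulb melanocytes (labelled Differentiated Mc) came from microdissected bulbs of anagen VI HFs at 5 weeks, released with EDTA, collagenase and dispase, with version 2 of that kit. For the bulb mice no depilation is given. Kit, dissociation, age, stage, depth and, as far as stated, depilation thus differed together with the condition and cannot be told apart from it. A telogen library was not analysed here.

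Cells were kept with at least 1 Dct UMI, under 3 UMIs of Krt10 and Krt14, under 5% mitochondrial UMIs, and over 10000 UMIs (early anagen) or 5000 UMIs (bulb), a UMI being a counted mRNA molecule. This left 2785 of 11010 barcodes in early anagen and 3734 of 4327 in the bulb, with 75718468 and 55883067 UMIs in all and medians of 24528 and 14286.5 UMIs per cell. The libraries shared 1 barcode sequence. All 8 melanocyte markers were detected in both libraries, summing to 24639 CPM (counts scaled to a library total of 1000000 UMIs) in early-anagen McSCs and 67431 CPM in bulb melanocytes. The 8 epidermal markers summed to 59.0 and 39.1 CPM, and the 4 hair matrix markers found in the gene list to 18.3 and 82.6 CPM, of which Lef1, which melanocytes may also express, made up 17.9 and 77.0 CPM. Of 6 fibroblast markers, Col1a1, Col3a1, Lum and Pdgfra were at 0 in the bulb, Col1a2 was at 0.447 CPM and Dcn at 0.376 CPM, and in early anagen the 6 lay between 0.0132 and 0.964 CPM.

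A ribosome holds a single copy of most of its proteins, apart from the acidic stalk proteins, and cells usually make them in near-equal amounts. Many of their mRNAs start with a C followed by a run of pyrimidines, the terminal oligopyrimidine (TOP) start, through which the mTOR pathway and LARP1 control their translation. In the pigment lineage they are known from mice with dark skin, in which mutations of Rps19 or Rps20 raise p53 in keratinocytes and Kit ligand with it, and from the white belly spot and kinked tail of the Rpl24 mutant.

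The first transcribed bases were read from RefSeq promoters (GRCm38.p6), where 66 of the 86 members had an entry. A C at the annotated start followed by at least 4 pyrimidines was found at 12 of 57 canonical members (21.1%), against 673 of all 27025 genes of the table (2.49%). When the start was allowed to lie up to 10 bases away, the shares were 54.4% and 30.8%. The match depends on the annotated start base, and the absence of a match says only that these letters were not at that base. The following 30 bases, 15 on each side of the start, show 4 members that lay far apart in the comparison of the libraries and Rack1, a ribosome-bound scaffold outside the rule. Capitals mark the pyrimidine run from the first transcribed base.
Rps21, chr2:180257364-180257393, + strand: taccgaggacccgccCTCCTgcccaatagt
Rps10, chr17:27635230-27635259, - strand: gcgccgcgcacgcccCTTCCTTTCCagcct
Rps18, chr17:33955651-33955680, - strand: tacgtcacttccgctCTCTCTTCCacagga
Rps6, chr4:86857353-86857382, - strand: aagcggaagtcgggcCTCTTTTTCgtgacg
Rack1, chr11:48800345-48800374, + strand: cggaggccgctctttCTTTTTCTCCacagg
The 12 members with this start had a median log2 ratio, bulb over early anagen, of -1.25 and the 45 without it -1.29. Within the 12, Rps21 (-2.91) and Rps10 (-2.37) stood near the low end of all members, while Rps18 (-0.16) and Rps6 (-0.02) were close to equal in both libraries.

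The ribosomal protein genes together took 24.7% of the UMIs of early-anagen McSCs (95% Clopper-Pearson interval 24.711 to 24.731) and 11.3% of those of bulb melanocytes (11.287 to 11.304), a 2.19-fold lower share in the bulb (log2 ratio -1.13, interval -1.131 to -1.129). Intervals here and below cover counting error only. The middle 50% of cells lay between 22.9% and 27.3% in early anagen, around a median of 25.1%, and between 9.83% and 12.3% in the bulb, around a median of 11.0%. Few cells passed the median of the other library: 1 early-anagen cell lay under the bulb median, and 7 bulb cells lay above the early-anagen median. The full ranges overlapped, at 7.02% to 37.2% in early anagen and 3.85% to 32.2% in the bulb. The median cell held 6111 member UMIs in early anagen and 1567 in the bulb, at the different depths of the libraries.

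**Figure D1:**
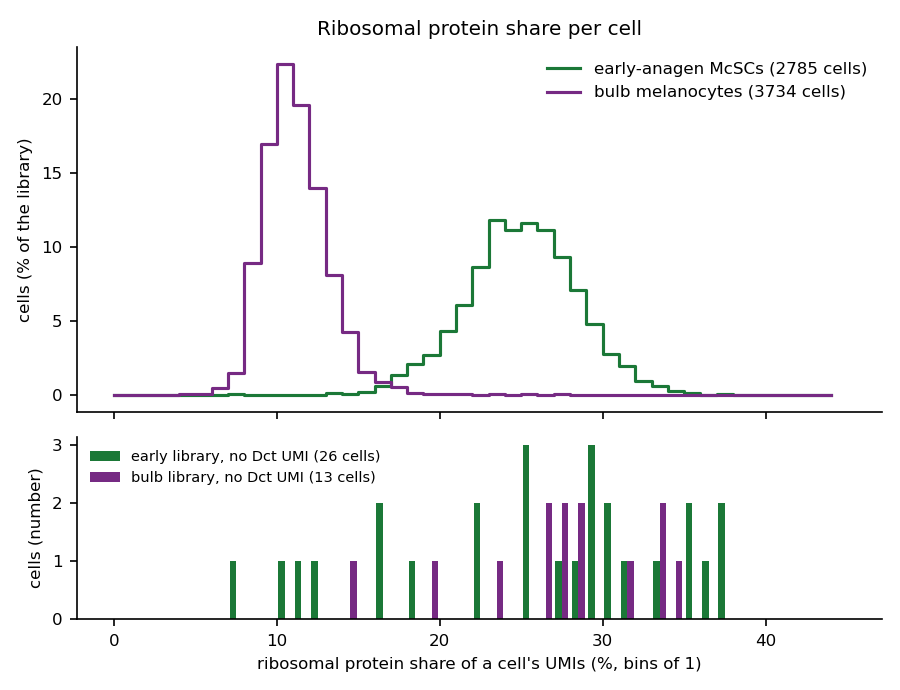
Share of each cell's UMIs from ribosomal protein genes (x axis, percent, bins of 1). The upper panel gives the percentage of cells of each library, with early-anagen McSCs centred at 25.1% and bulb melanocytes at 11.0%; the lower panel counts the cells without a Dct UMI, of which the 13 bulb cells lie between 14.5% and 34.9%.

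Pigmentation genes (16 genes of melanin synthesis and melanosomes) took 2.71% of UMIs in early anagen and 8.43% in the bulb. With these and mitochondrial genes left out of the total, the ribosomal protein shares were 26.2% and 12.7%. Barcodes of under 1000 UMIs, which can hold free RNA or damaged cells, carried 25.1% in early anagen and 4.85% in the bulb, where their median mitochondrial share was 45.5%. The part of free RNA in the shares of the cells was not tested. There were 18 bulb cells above the 5th percentile of early-anagen cells (19.3%). Of these, 13 held under 5 Dct UMIs, against a median of 225 over all bulb cells used, 14 held Sfn and 15 Lgals7, keratinocyte genes, and 15 held Tyrp1, so that their content goes against the melanocyte label in part. With at least 30 Dct UMIs per cell the log2 ratio of the shares was -1.14.

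Of 83 members with at least 10 CPM in either library, 74 were lower and 9 higher in the bulb. Of the 8020 genes that passed the same limit, 55.2% were lower. The median log2 ratio of the members was -1.15, against -0.19 over those genes. By at least 1.5-fold, 64 members (77.1%) were lower, where 38.8% of all genes were, and 2 members (2.41%) were higher, where 26.5% of all genes were. Those 2 were the paralogs Rps27rt, whose count is uncertain (below), and Rpl7l1. Both subunits were lower: the 46 large-subunit genes had a median of -1.24 and the 31 small-subunit genes a median of -1.23. The ratio of 60S to 40S UMIs was 1.34 in early anagen and 1.51 in the bulb. Under edgeR's TMM factors 60 members, and under DESeq2's size factors 59, were lower by 1.5-fold; these scalings moved the median of all genes by 0.15 and 0.18 on the log2 scale.

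**Figure D2:**
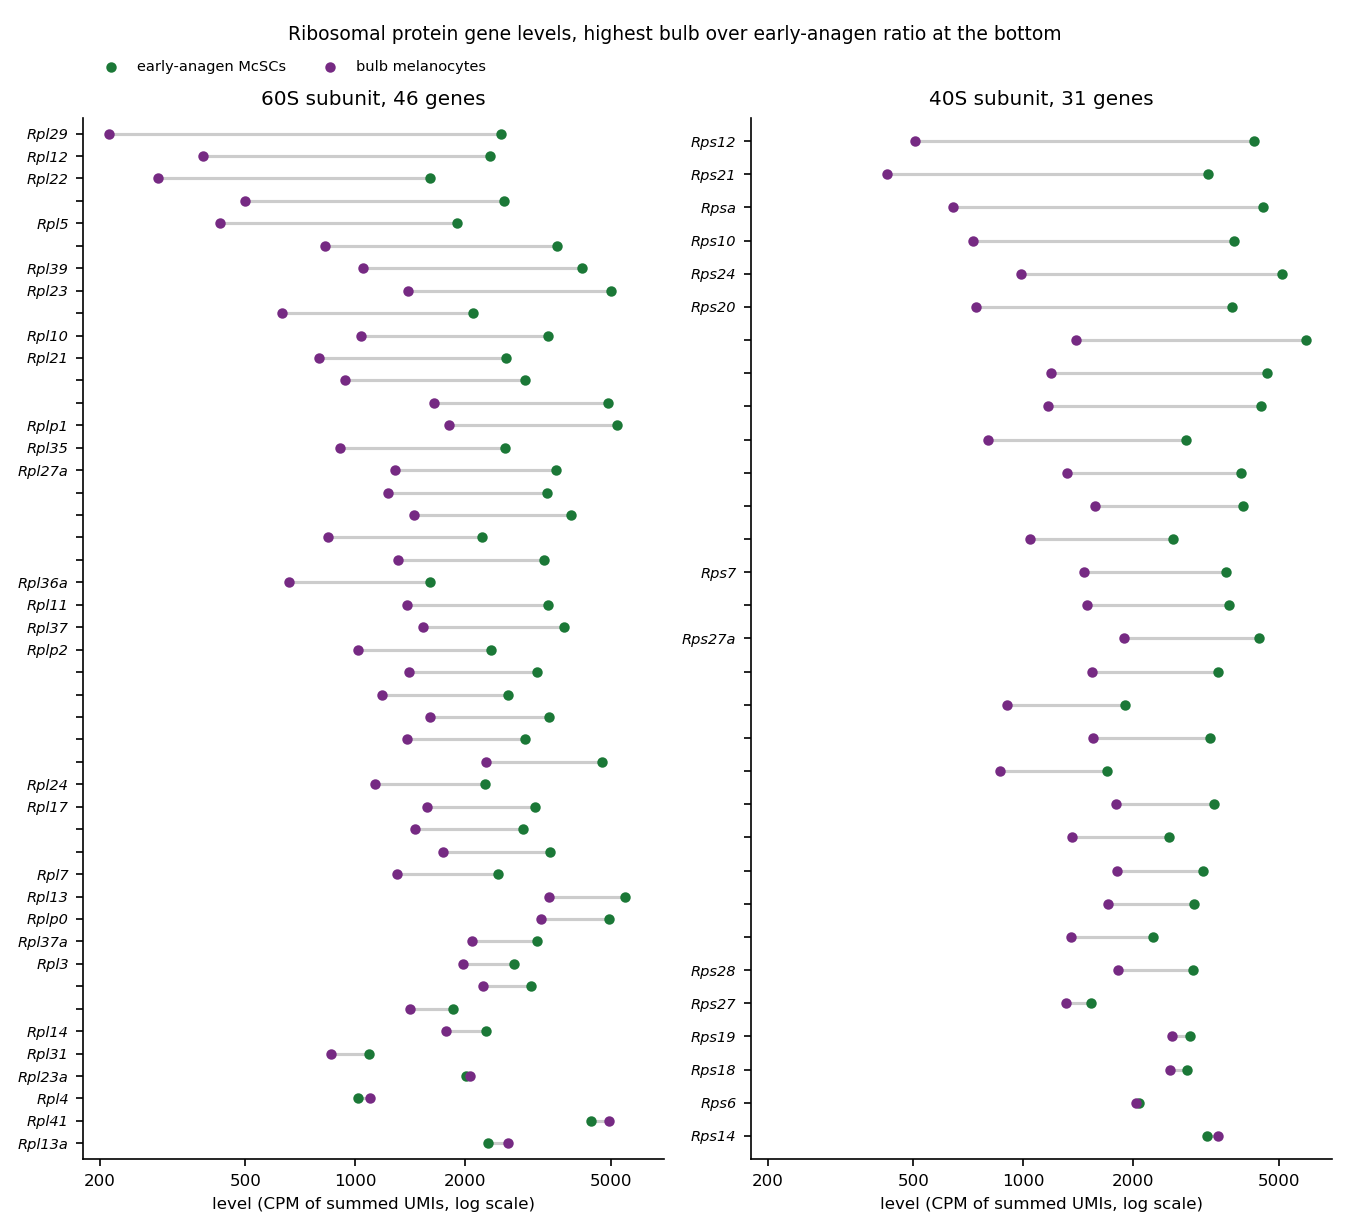
Levels of the 46 large-subunit and 31 small-subunit genes (x axis, CPM of summed UMIs, log scale) in early-anagen McSCs (green) and bulb melanocytes (purple), ordered by ratio, with the symbols of genes described in the text. Log2 ratios, bulb over early anagen, run from -3.56 at Rpl29 to 0.18 at Rpl13a in the large subunit. In the small subunit they run from -3.09 at Rps12 to 0.10 at Rps14.

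The members did not move by a common factor. Log2 ratios of canonical members ran from -3.56 to 0.18, with an SD of 0.80. This is far beyond counting error, as each had 11798 or more UMIs in both libraries. The lower and upper quartiles of the members tested were -1.67 and -0.65. Those of all genes tested lay further apart, at -1.17 and 0.64. Rpl29, a large-subunit protein, was at 2495 CPM in early-anagen McSCs and 211 CPM in bulb melanocytes (log2 -3.56, interval -3.59 to -3.54). Rps12, a small-subunit protein, went from 4283 to 505 CPM (-3.09), and Rps21, which carries the TOP start printed above, from 3196 to 424 CPM (-2.91). Rpsa, the ribosomal protein also known as the laminin receptor precursor, was at 4521 and 640 CPM (-2.82). Rpl12, part of the base of the stalk, was at 2342 and 383 CPM (-2.61). These 5 genes had the lowest ratios of all members tested. Near-identical copies, counted as described below, numbered 15 for Rpl29, 20 for Rps12, 10 for Rpsa, 9 for Rpl12 and 0 for Rps21. Other members with many copies had higher ratios, such as Rpl21 (32 copies, -1.70) and Rpl23a (13 copies, 0.04). How reads of such copies were counted in each library was not tested.

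At the other end, Rpl13a was at 2301 CPM in early anagen and 2614 CPM in the bulb (log2 0.18), Rpl4 at 1018 and 1095 CPM (0.11), Rps14 at 3184 and 3416 CPM (0.10) and Rpl23a at 2003 and 2055 CPM (0.04). Rps6, the subunit protein phosphorylated by the S6 kinases, was at 2075 and 2041 CPM (-0.02). The directions of Rps6, Rps18, Rps19 and Rpl22l1 were not settled: under DESeq2's size factors their log2 ratios were 0.16, 0.03, 0.02 and 0.07, against -0.02, -0.16, -0.17 and -0.11 by total UMIs. The order of levels differed as well. Rpl13, Rplp1, Rps24 and Rpl23 were among the 5 of highest level in early anagen with 5456 to 5010 CPM, and Rpl41, Rps14, Rpl13, Rplp0 and Rpl13a led in the bulb with 4939 to 2614 CPM. Counts of 3′ ends give each mRNA molecule a single UMI whatever its length, but capture may differ between genes.

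Members with roles outside the ribosome or with pigment phenotypes were spread over this range. The stalk proteins, which recruit translation factors, differed among themselves: Rplp0 had a log2 ratio of -0.61, Rplp1 of -1.52 and Rplp2 of -1.20. Between the cells without a Dct UMI, described below, these were 0.31, -0.64 and 0.22, in the same order. Of members whose mutation alters mouse pigmentation, Rps20 was at 3716 CPM in early anagen and 744 CPM in the bulb (-2.32), and Rps19 at 2862 and 2548 CPM (-0.17). Between the cells without a Dct UMI, Rps20 and Rps19 also lay far apart (-1.29 and 1.44). Within the bulb library, melanocytes over those cells, they were at -1.44 and -1.66. Rps7 was at 3591 and 1465 CPM (-1.29), Rpl27a at 3533 and 1287 CPM (-1.46) and Rpl24 at 2265 and 1131 CPM (-1.002). Of those known to bind the p53 regulator MDM2, Rpl5 was at 1895 and 425 CPM (-2.16), Rpl11 at 3360 and 1380 CPM (-1.28) and Rpl23 at 5010 and 1391 CPM (-1.85). Rpl5 and Rpl11, which enter the ribosome together with 5S rRNA, thus had unlike ratios between these libraries. Between the cells without a Dct UMI they lay apart as well (-0.58 and 0.17), and the source of the gap was not tested.

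Some members are made as fusion proteins, and some ribosomal proteins fall outside a rule by symbol. Rps27a, a member made as a fusion with ubiquitin, was at 4408 CPM in early anagen and 1883 CPM in the bulb (log2 -1.23). Fau, the precursor of eS30, was at 3509 and 1435 CPM (-1.29), and Rack1 at 2228 and 413 CPM (-2.43).

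A like comparison could be made in cells of these libraries that held no Dct UMI, under the same UMI and mitochondrial limits. The limit on Krt10 and Krt14, which the melanocytes had to pass, was not applied to them. It was chosen after the data were seen. There were 26 such cells in early anagen, 24 with Sfn, 25 with Perp, 20 with Krt14 and 17 with Krt10, all keratinocyte genes. There were 13 in the bulb, 13 with Sfn, 13 with Perp, 12 with the hair matrix gene Msx2, 5 with the hair keratin Krt35 and 2 with Krt14. Melanocyte RNA was also present, Tyrp1 in 14 and 5 of these cells and Mlana in 13 and 12. Both sets are few cells that passed a sort for GFP, and by these markers they are not of the same kind in both libraries.

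In the bulb library, ribosomal protein genes took 27.7% of the UMIs of cells without Dct (interval 27.460 to 27.934) and 11.3% of those of melanocytes. The melanocyte share was lower by 1.29 on the log2 scale (log2 ratio -1.29). All 77 canonical members were lower in bulb melanocytes than in the cells without Dct beside them. Of all 407 genes with at least 50 UMIs in both sets of cells without Dct, 69.8% were lower. By at least 1.5-fold, 76 members (98.7%) were lower, where 51.1% of those genes were, and 0 higher, where 14.5% were. The 407 genes include the 77 members, which also passed the limit of 50 UMIs. That limit favours genes that are high in cells without Dct. In the early-anagen library the shares of summed UMIs were 24.7% and 24.7% (log2 ratio 0.00), while the median cell without Dct held 28.2% and the median melanocyte 25.1%. There 34 of 77 members and 33.4% of the 407 genes were lower in melanocytes. By at least 1.5-fold, 1 member (1.3%), Rps27, was lower (-0.64), where 15% of those genes were, and 0 higher, where 28.3% were. The share of single cells without Dct ran from 7.62% to 37.7% in early anagen and from 14.5% to 34.9% in the bulb, where each lay above the median of bulb melanocytes. These 13 cells differ from melanocytes in kind, and what sets the difference was not tested.

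The spread between members behaved differently. Within the bulb library the log2 ratios of melanocytes over cells without Dct had an SD of 0.29 around a median of -1.33, and within the early-anagen library an SD of 0.18 around 0.01. Between the libraries the SD was 0.80 in melanocytes (median -1.23) and 0.78 in cells without Dct (median 0.11). The ratios of a gene within and between the libraries come from the same sums. A small spread within both libraries therefore goes with a like order between them, and these are not separate observations. No like spread over the 407 genes was taken. Rpl29 had log2 ratios, bulb over early anagen, of -3.56 in melanocytes and -2.26 in cells without Dct. For Rps12 they were -3.09 and -1.69, for Rps21 -2.91 and -1.48, for Rpsa -2.82 and -0.997, and for Rpl12 -2.61 and -0.98. At the other end, Rpl13a had 0.18 and 1.08, Rpl41 0.17 and 0.75, Rpl4 0.11 and 1.79, Rps14 0.10 and 1.17, and Rpl23a 0.04 and 1.24. The 5 lowest members of the comparison of melanocytes were thus below 0 in the cells without Dct as well, and the 5 highest canonical members above 0. Of all 77 canonical members, 33 were below 0 between the cells without Dct. Of the 407 genes, members included, 23.6% were, with a median of 0.57, so most genes lay above 0 there. Rpl41 summed with its copy Gm10076 (below) had -0.54 in melanocytes.

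**Figure D3:**
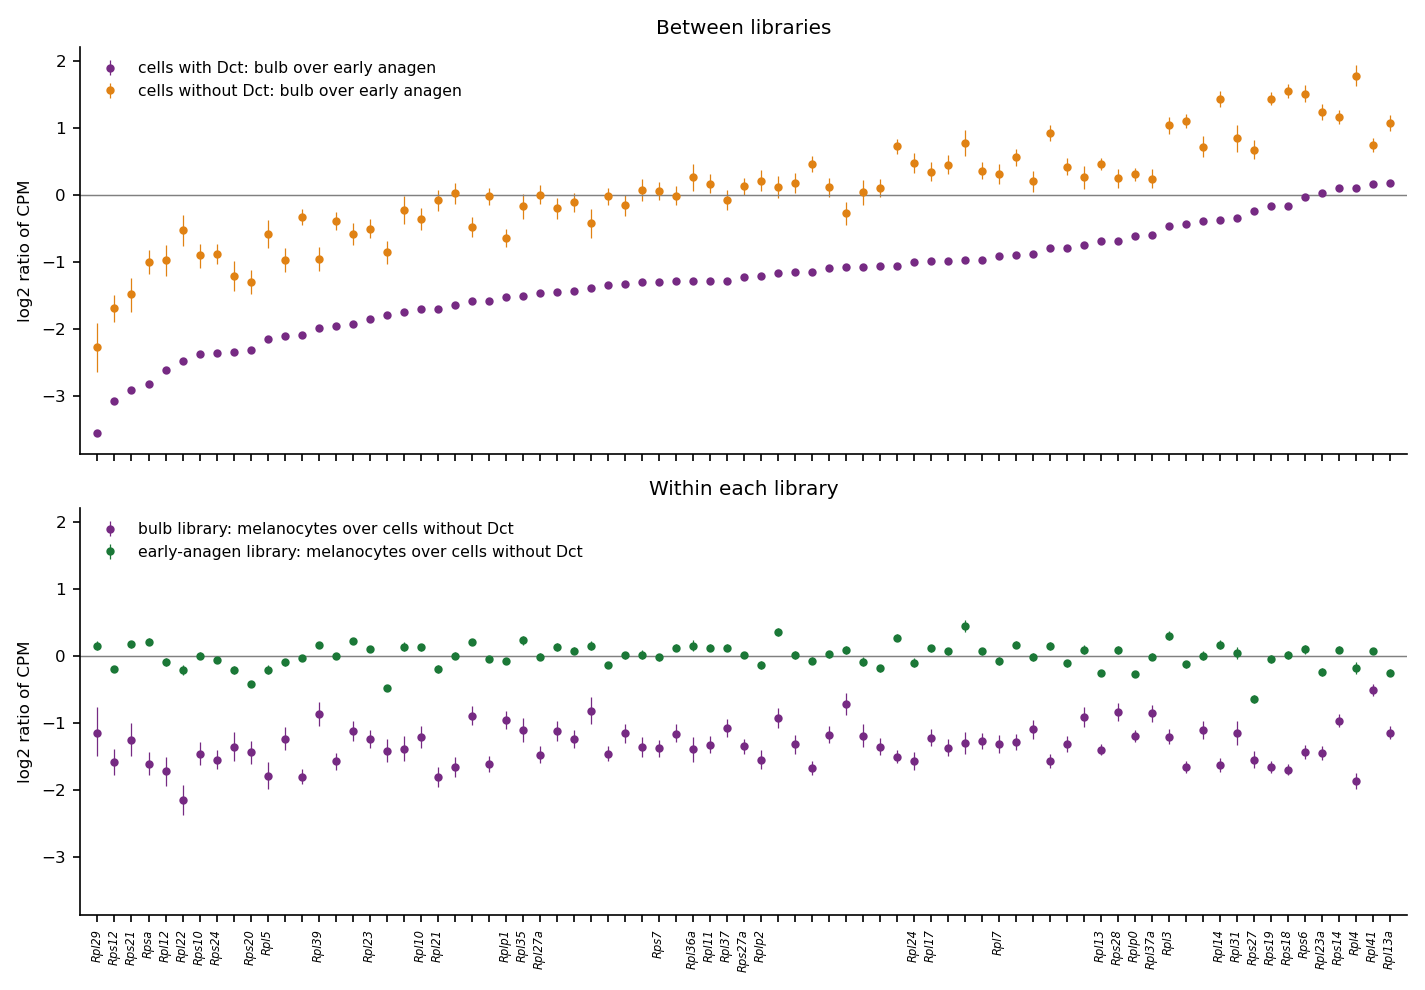
Log2 ratios of CPM for 77 canonical members in the same order in both panels, with 95% counting intervals. Between libraries (upper panel), melanocytes (purple) and cells without Dct (orange) climb together from Rpl29 to Rpl13a at different heights. Within a library (lower panel), melanocytes over cells without Dct lie near 0 in early anagen (green) and near the median of -1.33 in the bulb (purple). Both panels come from the same sums of each gene, so they are not separate observations.

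The paralogs followed their partners in part. Rps27 was at 1532 CPM in early-anagen McSCs and 1307 CPM in bulb melanocytes (log2 -0.23), and Rps27l, a paralog known as a p53 target, at 670 and 771 CPM (0.20). Rps27l made up 30.4% of the UMIs of the pair in early anagen and 37.1% in the bulb. Rpl22 was at 1599 and 288 CPM (-2.47), while its paralog Rpl22l1 was at 1467 and 1355 CPM (-0.11), so that Rpl22l1 held 47.8% of the pair's UMIs in early anagen (interval 47.6 to 48.0) and 82.5% in the bulb (82.2 to 82.7). In the cells without Dct, Rpl22 itself had a log2 ratio, bulb over early anagen, of -0.53, and within the bulb library it was lower in melanocytes by more than any other canonical member (-2.15). Rpl36al went from 955 to 531 CPM (-0.85) beside Rpl36a (-1.29), and Rpl7l1, a divergent relative of Rpl7 that acts in ribosome assembly, from 67.2 to 112 CPM (0.74) beside Rpl7 (-0.92).

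Rpl39l had 129 UMIs in 30 early-anagen cells (1.70 CPM) and none in the bulb, at least 31.7-fold lower against a floor of 3 UMIs in that library. This bound treats UMIs as independent, although they lay in few cells. Rpl39 went from 4167 to 1047 CPM (-1.99). Rpl3l, the striated muscle form of Rpl3, had 4 UMIs in the bulb and none in early anagen, and Rpl10l, a testis gene, had 1 UMI in early anagen. Rpl39l, Rpl3l and Rpl10l were the members below the 10 CPM limit. Rps19bp1 was at 65.0 and 71.1 CPM (0.13).

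How well a paralog can be counted apart depends on its sequence. The coding sequences of Rps27 and Rps27l (GENCODE vM21) have 255 bases each and differ at 61 of them, with 3 of 84 encoded residues changed. They are shown because Rps27l and Rps27 moved apart in the splits below; capitals mark the bases at which Rps27l differs.
Rps27: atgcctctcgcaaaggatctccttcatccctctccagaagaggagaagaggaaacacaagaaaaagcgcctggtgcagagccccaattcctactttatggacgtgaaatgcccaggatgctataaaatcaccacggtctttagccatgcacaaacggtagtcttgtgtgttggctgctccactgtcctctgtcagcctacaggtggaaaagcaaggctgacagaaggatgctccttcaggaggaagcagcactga
Rps27l: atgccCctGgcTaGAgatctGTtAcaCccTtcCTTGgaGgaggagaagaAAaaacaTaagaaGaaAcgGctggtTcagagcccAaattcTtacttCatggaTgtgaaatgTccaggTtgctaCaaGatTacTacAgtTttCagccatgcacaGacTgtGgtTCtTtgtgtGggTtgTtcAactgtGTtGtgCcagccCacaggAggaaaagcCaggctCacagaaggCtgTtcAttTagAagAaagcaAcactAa
Rps27rt has the coding sequence of Rps27 at all 255 bases, so reads within it cannot be told apart. The 9.72 and 39.2 CPM of Rps27rt (log2 2.01) are uncertain, and reads that match both genes may be missing from either count. The 2 genes summed had a log2 ratio of -0.20. Rpl36a and Rpl36al encode the same 106 residues with 39 of 321 bases different, Rpl10l differs from Rpl10 at 3 residues and Rpl39l from Rpl39 at 3, while Rpl22l1 keeps 71.1% and Rpl7l1 42.2% of aligned residues.

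Besides Rps27rt, Rpl41 changed direction when summed with a near-identical copy in the gene list. Gm10076 matches the coding stretch of Rpl41, the shortest of the canonical members, at all 78 bases, which is printed once for both.
Rpl41: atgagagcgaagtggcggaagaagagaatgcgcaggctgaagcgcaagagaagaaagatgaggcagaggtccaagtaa
Gm10076 was at 3028 CPM in early-anagen McSCs and 166 CPM in bulb melanocytes (log2 -4.19), while Rpl41 alone went from 4403 to 4939 CPM (0.17). Summed, the pair went from 7432 to 5105 CPM (-0.54). For Rpl21 with BC004004 the sum had -1.44 against -1.70 alone, and for Rpl35 with Gm2000 -1.38 against -1.50, without a change of direction. Over the 77 canonical members, copies elsewhere in the annotated transcripts (at least 97% identity over at least 100 of 300 bases around the coding end) numbered 0 to 32 per gene, with a median of 4. The 24 members with 6 or more copies had a median log2 ratio of -1.44 (range -3.56 to 0.04). The 48 with 1 to 5 copies had one of -1.12 (-2.37 to 0.18), and the 5 with no copy one of -1.15 (-2.91 to 0.11). Copy number had a rho of -0.15 with the log2 ratio over 77 genes, which are not independent.

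Genes around the ribosome did not all follow. For comparison, 55.2% of all genes tested were lower in the bulb. The 9 snoRNA host genes, whose introns encode RNAs that guide rRNA modification, were all lower in the bulb, 7 (77.8%) by at least 1.5-fold where 38.8% of all genes were, with a median log2 ratio of -1.52, from Snhg1 (242 and 36.0 CPM, -2.75) to Snhg5 (12.6 and 10.5 CPM, -0.26). Of 26 translation factors 20 were lower, 11 (42.3%) by at least 1.5-fold, a share near that of all genes, with a median of -0.42 against -0.19. Eef1b2 (1428 and 284 CPM, -2.33) and Tpt1 (5883 and 1248 CPM, -2.24) were the lowest, and Eif4a2 (100.2 and 154 CPM, 0.62) the highest. Of 36 ribosome biogenesis genes tested 26 were lower, 18 of them (50%) by at least 1.5-fold, with a median of -0.54. The 78 mitochondrial ribosomal protein genes, which serve the separate ribosome of the mitochondrion, had a median of 0.18, with 27 lower and 51 higher; 11 (14.1%) were lower and 12 (15.4%) higher by at least 1.5-fold, where 38.8% and 26.5% of all genes were. Their summed share was 0.736% in early anagen and 0.842% in the bulb.

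Regulators of the family were mixed. Of 16 mTOR and MYC regulators tested 8 (50%) were lower and 3 (18.8%) higher by at least 1.5-fold, where 38.8% and 26.5% of all genes were. Larp1, which binds TOP mRNAs, was at 62.0 CPM in early anagen and 10.8 CPM in the bulb (log2 -2.51), and Max, the partner of MYC, at 53.9 and 196 CPM (1.86). Of 8 genes of p53 and ribosomal stress, 2 (25%) were lower and 4 (50%) higher by that limit. Trp53 was at 114 and 40.9 CPM (-1.48), and its target Cdkn1a, the inhibitor of cyclin-dependent kinases, at 43.0 and 195 CPM (2.18). As each library stands alone, these ratios describe the libraries.

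Within each library, cells can be compared under the same preparation. Cells were classed by a UMI of Mki67 or Top2a, genes of proliferating cells, after each was thinned to 10000 UMIs (early anagen) or 5000 UMIs (bulb), while shares were taken from all UMIs. In early anagen 993 cells had such a UMI and 1792 had none, with median depths of 34875 and 21039 UMIs. Their ribosomal protein shares were 24.0% and 25.4% (log2 ratio -0.08, interval -0.083 to -0.081). In the bulb 69 cells had such a UMI and 3665 had none, with median depths of 20233 and 14214 UMIs and shares of 12.8% and 11.3% (log2 ratio 0.19, interval 0.183 to 0.196). Within the bulb cells without Oca2 the ratio was 0.055 (24 against 473 cells). Within those with Oca2 the shares were 12.8% and 11.1% (45 against 3192 cells). The share was thus a little lower in Mki67/Top2a cells of early anagen and a little higher in those of the bulb. Whether the ratios of the libraries differ was not tested.

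In early anagen 71 of 83 members were lower in the Mki67/Top2a cells, with a median log2 ratio of -0.08 against -0.03 over 7743 genes. Of those genes, 54.2% were lower. By 1.2-fold, 2 members (2.41%) were lower and 0 higher, where 20.8% and 19.5% of all genes were, so that fewer members than genes in all passed that fold. The genes compared start at 10 CPM, where counting error is larger, while canonical members were at 1018 CPM or more in this library. No background of genes at like levels was made for this or the other comparisons. Those 2 were Rpl10 (3685 CPM in cells without and 3013 CPM in cells with a UMI, -0.29) and Rps27 (1663 and 1385 CPM, -0.26). Rpl37 (-0.18), Rpl23 (-0.18) and Rpl17 (-0.17) followed. With at least 30 Dct UMIs per cell, 1 member was lower by 1.2-fold and 0 higher. Among the highest were Rps27l (620 and 726 CPM, 0.23), Rpl7l1 (0.16), Rpl41 (0.10) and Rpl31 (0.07). Rps27l thus made up 27.2% of the UMIs of its pair in cells without Mki67 and Top2a and 34.4% in cells with them. Rpl39l, below the CPM limit, had 97 UMIs (2.73 CPM) in Mki67/Top2a cells and 32 UMIs (0.796 CPM) in the others, a log2 ratio of 1.78 (interval 1.19 to 2.40). These UMIs lay in 30 cells, so the interval is too narrow.

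In the bulb 77 of 83 members were higher in the Mki67/Top2a cells, with a median of 0.21 against 0.01 over 7130 genes. Of those genes, 48.9% were lower. By 1.2-fold, 25 members (30.1%) were higher, close to the 30.5% of all genes that were, and 1 (1.2%) was lower, where 26.6% of all genes were. A share this near to the background is not a result about the members, and the median rests on 69 cells. With at least 30 Dct UMIs per cell, 22 members were higher and 1 lower by 1.2-fold. Among the highest were Rpsa (631 CPM in cells without and 1000 CPM in cells with a UMI, 0.66), Rpl12 (0.57), Rpl5 (0.48) and Rps24 (0.46). The lowest were Rps27 (-0.29), Rps27rt (-0.23), Rps28 (-0.15), Rps14 (-0.10) and Rpl7l1 (-0.09). Rps27 was at 1312 and 1077 CPM and Rps27l went the other way (0.24), making up 36.9% and 45.8% of the pair's UMIs. A lower Rps27 and a higher Rps27l in Mki67/Top2a cells was measured in both libraries. Of the 77 canonical members, 66 were lower in Mki67/Top2a cells of early anagen and higher in those of the bulb. No like count was made over all genes. As members go together over cells, this count restates the directions of the summed share.

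Oca2, which encodes a melanosomal chloride channel needed for melanin synthesis, split the cells by pigment gene expression. In early anagen 292 cells had an Oca2 UMI at the thinned depth and 2493 had none, with median depths of 27409 and 24119 UMIs. Their ribosomal protein shares were 22.69% and 24.97% (log2 ratio -0.14, interval -0.140 to -0.136). In the bulb 3237 cells had a UMI and 497 had none, with median depths of 14440 and 13355 UMIs and shares of 11.1% and 12.4% (log2 ratio -0.16, interval -0.160 to -0.153). When bulb cells were classed on all their UMIs, which left 143 cells without Oca2, the ratio was -0.31. Of the 18 bulb cells with a high share and mostly few Dct UMIs described above, 16 had no Oca2 UMI at the thinned depth. How many of them are among the 143 was not counted. The share was lower in Oca2 cells of both libraries. Pigmentation genes took 4.49% and 2.49% of UMIs in the early-anagen classes and 8.63% and 6.98% in the bulb classes. Without them and the mitochondrial genes in the total, the log2 ratios were -0.10 and -0.13.

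In early anagen 80 of 82 members tested were lower in Oca2 cells, where 45.98% of all genes were. The median was -0.13 against 0.03 over 7727 genes. Of the members, 4 were lower (4.88%) and 0 higher by 1.2-fold, where 16.7% and 20.2% of all genes were. Among those 4 were Rpl14 (2321 CPM without and 1879 CPM with Oca2, -0.31), Rps27l (-0.30) and Rps19 (-0.30), and Rpsa followed them at -0.26. The 2 higher were Rpl10 (0.07) and Rpl36al (0.02), and Rpl7 (-0.03), Rps28 (-0.04) and Rpl7l1 (-0.05) were nearest to them. In the bulb 82 of 83 members were lower, where 55.7% of all genes were (median -0.16 against -0.03 over 6788 genes). By 1.2-fold, 4 members were lower (4.82%) and 0 higher, where 11% and 6.35% of all genes were. Those 4 were Rpl29 (281 and 201 CPM, -0.48), Rpl22 (-0.29), Rps27l (-0.28) and Rpl21 (-0.27). Rps19bp1 was the 1 higher (0.09), and Rpl7l1 (-0.01), Rps28 (-0.03), Rplp1 (-0.08) and Rpl37a (-0.09) came next. Of the 77 canonical members, 76 were lower with Oca2 in both libraries, all but Rpl10. This count too has no counterpart over all genes and restates the direction of the summed share. Of the 30 bulb cells with under 30 Dct UMIs, 26 were among those without Oca2. With at least 30 Dct UMIs per cell, the bulb log2 ratio was -0.12 and 2 members were lower by 1.2-fold.

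**Figure D4:**
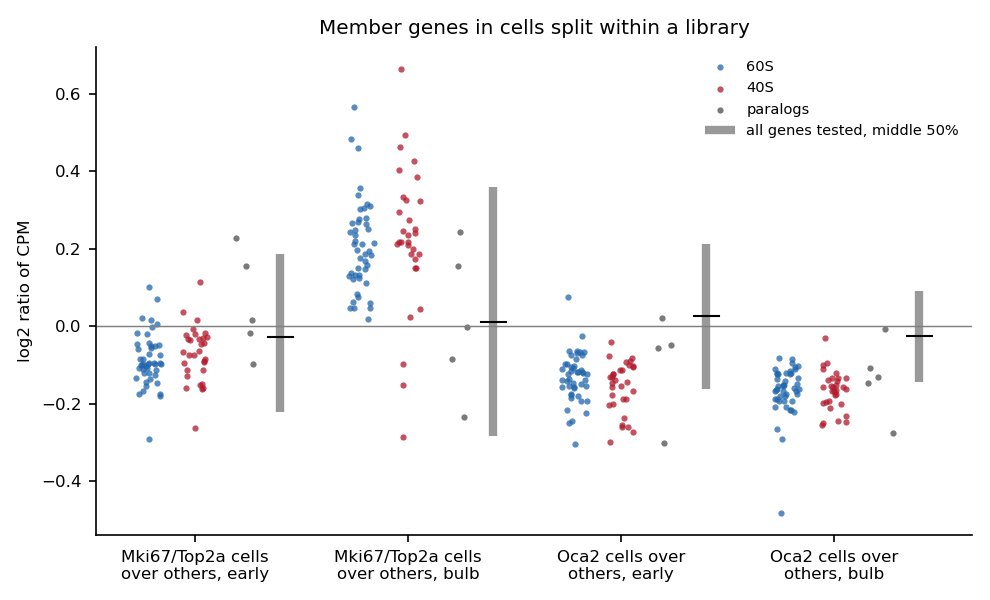
Log2 ratios of CPM of members with at least 10 CPM, between cells with and without Mki67 or Top2a and with and without Oca2, in each library. Points are 60S genes (blue), 40S genes (red) and paralogs (dark grey); the grey bar spans the middle 50% of all genes tested and its black line is their median. Members lie in a narrow band mostly below 0 in 3 splits and mostly above 0 in Mki67/Top2a cells of the bulb.

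Within the libraries the canonical members thus lay closer to each other than between them. The SDs of their log2 ratios were 0.07 in both early-anagen splits and 0.06 for Oca2 in the bulb. For the 69 Mki67/Top2a cells of the bulb the SD was 0.15, and between libraries it was 0.80. All genes tested also lay closer together within libraries. Their lower and upper quartiles were -1.17 and 0.64 between libraries. For Mki67/Top2a they were -0.22 and 0.19 in early anagen and -0.28 and 0.36 in the bulb. For Oca2 they were -0.16 and 0.21 in early anagen and -0.15 and 0.09 in the bulb. A smaller spread was thus not particular to the members. When both classes were crossed, early-anagen cells with neither had a share of 25.8% (1565 cells), those with Mki67 or Top2a alone 24.1% (928 cells), those with Oca2 alone 22.7% (227 cells) and those with both 22.6% (65 cells). In the bulb these shares were 12.4% (473 cells), 12.9% (24 cells), 11.1% (3192 cells) and 12.8% (45 cells). Every early-anagen class lay above every bulb class.

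Depth differed between the classes, so the shares were also compared within quartiles of UMIs per cell. In early anagen Mki67/Top2a cells had the lower share in each of the 4 quartiles (log2 ratios -0.08 to -0.05), as had Oca2 cells (-0.16 to -0.11). In the bulb Oca2 cells had the lower share in each of the 4 quartiles (-0.20 to -0.13), while Mki67/Top2a cells had the higher share in 3 of 4, with 6 to 47 such cells a quartile.

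**Figure D5:**
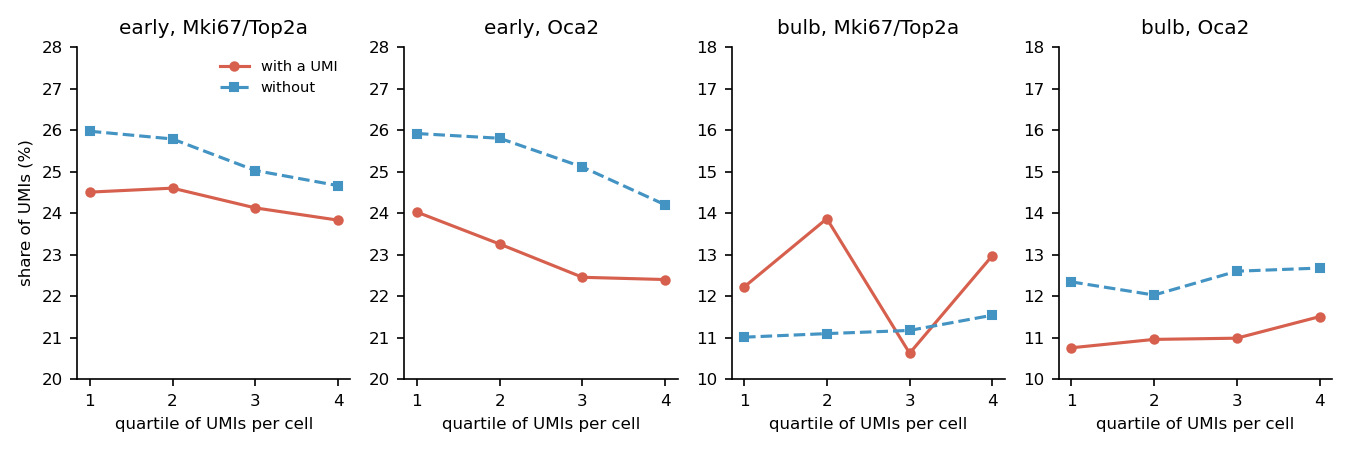
Ribosomal protein share of summed UMIs (y axis, percent; the axes do not start at 0 and differ between libraries) in quartiles of UMIs per cell, for cells with (red, solid) and without (blue, dashed) a UMI of the named genes. Oca2 cells lie below the others in every quartile of both libraries.

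Across the cells of a library the share varied beyond counting. After thinning to 10000 UMIs its SD was 3.42 percentage points in early anagen, 7.89 times that of counting alone, and after thinning to 5000 UMIs it was 2.13 in the bulb, 4.77 times. Large- and small-subunit shares went together over cells (Spearman rho 0.96 over 2785 cells and 0.94 over 3734 cells, sharing library and total). The share had a rho with UMIs per cell of -0.21 in early anagen and 0.12 in the bulb. Taken relative to all UMIs outside the members, translation factors followed it most closely of the lists with 10 or more genes (0.83 and 0.73), biogenesis genes less (0.33 and 0.29), and pigmentation genes ran against it (-0.20 and -0.26). These are descriptions of cells that share a library.

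Of 2768 single genes with at least 50 CPM in early anagen, those that followed the share most closely over cells included Rack1 (rho 0.64), Fau (0.61), the elongation factor Eef1a1 (0.60) and Gm10076 (0.59). Those that ran most against it were Id2 (-0.35), an inhibitor of basic helix-loop-helix factors, and the mitotic genes Cenpf (-0.33), Ccnb2 (-0.32), Mki67 (-0.31) and Hmmr (-0.30). Id2 was at 128 CPM of the non-member UMIs in the top quartile of cells by ribosomal protein share and at 487 CPM in the bottom quartile. Of 2640 genes in the bulb, Eef1a1 (0.59), Rack1 (0.45), Fau (0.45), Eef1g (0.44) and Nme2 (0.43) followed it most closely. The lysosomal genes Ctsb (-0.40) and Psap (-0.33), the melanosomal Tyrp1 (-0.39), Dkk3 (-0.30) and Phlda1 (-0.30) ran most against it. Tyrp1 was at 13150 CPM of the non-member UMIs in the top quartile of bulb cells by that share and 16913 CPM in the bottom quartile.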

How the data were processed

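Single-cell RNA-seq of sorted melanocyte lineage cells was measured in 2 libraries. The authors deposited, per library, a matrix of UMI counts per gene and cell barcode, made with Cell Ranger 6.0.1 on mm10 per the labels. Each condition is 1 library, so samples were grouped by label, no test was made and no replicate could be left out. From the counts, UMIs were summed over the cells kept. Shares carry 95% Clopper-Pearson intervals and ratios of CPM exact intervals of 2 Poisson sums, which cover counting error only. CPM are relative, so that a lower level of one group of genes raises the others. Genes were compared where either group had at least 10 CPM, and counted past 1.5-fold between libraries and 1.2-fold within them. Classes of cells within a library were set after each cell was thinned at random to 10000 (early anagen) or 5000 (bulb) UMIs, since a deeper cell shows a UMI of any gene more often. No doublet caller was run; cells with the most UMIs were left out as an alternative. Low-count genes, scaling (edgeR 4.0.16 TMM, DESeq2 1.42.0 size factors), cell limits and totals were varied. Near-identical copies were searched with blastn 2.17.0 in GENCODE vM21 transcripts. How reads of such copies were assigned beyond the default of the counting tool is not given in the sources used here. Code was tested on simulated counts. Python 3.11.15 and scipy 1.17.1 were used.

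Genes named in the text are, per comparison, the 5 members of highest and the 5 of lowest ratio, the 5 of highest level, all paralogs with their partners, stalk proteins, Rpsa, Rack1, members with pigment or p53 roles, Rps6, Rps27a, Fau, up to 4 genes of each other list, and the 5 genes of highest and lowest correlation with the share. Further genes were chosen after their values were seen: the copies Gm10076, Gm2000 and BC004004, the members Rpl4, Rpl23a, Rps10 and Rps18, and the comparison with cells without Dct. Values of some genes that the rule names, and an alternative that used one of them, are not reported here. The members, lists and comparisons were chosen with earlier results of these data known.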

Additional observations from a re-analysis of the deposited data

Results flagged for a closer look

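The ribosomal protein share of Mki67/Top2a cells over the other cells went in opposite directions in the libraries, with a log2 ratio of -0.082 in early anagen (993 against 1792 cells) and 0.19 in the bulb (69 against 3665 cells). Each library is a single sample, and the difference between these ratios was not tested. In the bulb cells without Oca2, the same ratio was 0.055 (24 against 473 cells). In those with Oca2 the shares were 12.8% and 11.1% (45 against 3192 cells). The cells without Oca2 include 16 of the 18 bulb cells with a high share described above.

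Cells outside the comparison of melanocytes carried a signal of their own: the 13 bulb cells without a Dct UMI held 27.7% of their UMIs in ribosomal protein genes, against 11.3% in the bulb melanocytes. These cells are few, and their part in the sort was not tested.

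Gm10076, a gene outside the rule with the coding stretch of Rpl41, had a log2 ratio, bulb over early anagen, of -4.19, while Rpl41 had 0.17. How reads were divided between them was not tested.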

How the results depend on the processing

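Every alternative kept the direction of all 6 results, with UMI quartiles taken as their mean, but at these depths most moved them by more than counting error. For the share, bulb over early anagen (-1.13 on the log2 scale), the ratio was -1.13 with 10000 UMIs in both libraries, a mitochondrial limit of 10% or none, at least 3 Dct UMIs, or a total without mitochondrial genes. It was -1.14 without a UMI minimum, without a keratin limit, or with at least 10 or 30 Dct UMIs (limits chosen after seeing the data). It was -1.15 with no Krt10 or Krt14 UMI, without the 5% of cells with most UMIs, or for canonical members, -1.16 as a mean over cells, -1.04 without mitochondrial and pigmentation genes, and -0.97 without the 50 most abundant other genes. The median member ratio (-1.15) was -1.01 with TMM factors, -0.97 with DESeq2 size factors, -1.18 without a UMI minimum, -1.17 under either keratin change, -1.20 as a mean over cells and -1.06 without mitochondrial and pigmentation genes.

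For Mki67/Top2a cells of early anagen (-0.08), the ratio was -0.075 when classed on all UMIs, -0.074 without the 5% of cells with most UMIs, -0.087 when classed on 5000 UMIs, -0.085 as a mean over cells, -0.078 under either mitochondrial change, -0.064 over UMI quartiles and -0.060 without a keratin limit. It was -0.10 with at least 2 UMIs, without mitochondrial and pigmentation genes, or in cells without Oca2. In the bulb (0.19) it was 0.16 with at least 2 UMIs, 0.14 as a mean over UMI quartiles or with no Krt10 or Krt14 UMI, 0.22 without a keratin limit, 0.18 with at least 10 or 30 Dct UMIs, 0.15 without mitochondrial and pigmentation genes, and 0.055 in the 497 cells without Oca2, 24 of them with Mki67 or Top2a. In UMI quartile 3 of the bulb taken alone, the direction was reversed (-0.07, 7 against 925 cells).

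For Oca2 cells of early anagen (-0.14), the ratio was -0.13 on all UMIs or over UMI quartiles, -0.17 when classed on 5000 UMIs, -0.18 with cells of over 5000 UMIs, with at least 2 UMIs or in cells without Mki67 and Top2a, -0.15 under either mitochondrial change, without the 5% of cells with most UMIs or as a mean over cells, -0.12 under either keratin change, and -0.10 without mitochondrial and pigmentation genes. In the bulb (-0.16) it was -0.31 when classed on all UMIs, which left 143 cells without Oca2, -0.15 with 10000 UMIs, -0.11 with at least 2 UMIs, -0.17 over UMI quartiles or without a keratin limit, -0.14 with no Krt10 or Krt14 UMI, -0.13 with at least 3 Dct UMIs or without mitochondrial and pigmentation genes, -0.12 with at least 10 or 30, and -0.16 as a mean over cells. The causes were not tested. Classes without a UMI minimum were not run, since shallower cells cannot be thinned to the same depth. No paired analysis was possible because each condition is a single library.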

Other observations

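Other gene groups of the ribosome differed between the same classes of cells, given here as values with no test. In Mki67/Top2a cells of early anagen, 69 of 76 mitochondrial ribosomal protein genes tested were higher, with a median log2 ratio of 0.19. By at least 1.2-fold, 21 of them (27.6%) were higher where 19.5% of all genes were. Of the cytosolic members 71 of 83 were lower, where 54.2% of all genes were. Mrpl18 (120 CPM in cells without and 204 CPM in cells with a UMI, 0.77) and Mrpl51 (140 and 213 CPM, 0.61) were the highest. In the bulb 62 of 78 were higher, where 48.9% of all genes were lower. By at least 1.2-fold, 27 (34.6%) were higher, close to the 30.5% of all genes. The median was 0.12, and Mrpl18 was again the highest (182 and 365 CPM, 1.01).

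Ribosome biogenesis genes had a median log2 ratio of 0.07 in Mki67/Top2a cells of early anagen, where 9 of 36 tested (25%) were higher and 2 (5.56%) lower by at least 1.2-fold, against 19.5% and 20.8% of all genes. Nop58, a core protein of box C/D snoRNPs, was at 98.3 CPM in cells without and 134 CPM in cells with a UMI (0.45). In Oca2 cells of early anagen, 14 of 36 (38.9%) were lower and 2 (5.56%) higher by that limit, where 16.7% and 20.2% of all genes were, with a median of -0.20, and Nop58 was at 119 CPM without and 77.8 CPM with Oca2 (-0.62). The snoRNA host genes were lower in 8 of 9 cases in Mki67/Top2a cells of early anagen (median -0.25), where 54.2% of all genes were lower. Snhg4 was at 84.2 and 54.3 CPM (-0.63) and Gas5 at 720 and 511 CPM (-0.49).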
